A study of Mus musculus with 12 samples.

Results

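The mitochondrial genome of the mouse supplied 37 of the 33100 gene rows in this bulk RNA sequencing study, taken as every row whose symbol begins with mt-. They are 13 protein genes, 2 ribosomal RNA (rRNA) genes and 22 transfer RNA (tRNA) genes, and all 37 rows had the position, strand and length of the GENCODE vM21 annotation of GRCm38. After a filter on low counts 34 were tested, namely 13 protein, 2 rRNA and 19 tRNA genes, while mt-Tf, mt-Td and mt-Tk were left out. Of the 34, 8 passed only through the tumor libraries, 3 protein genes (mt-Co2, mt-Atp8 and mt-Co3) and 5 tRNA genes (mt-Tv, mt-Ts1, mt-Tg, mt-Ts2 and mt-Tt).

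The samples are labelled as natural killer (NK) cells, lymphocytes that kill tumor cells, from spleen and from tumor. The mice were WT or carried a conditional knockout of 1 gene, labelled cKO, which gave 4 groups (each tissue in WT and in cKO) of 3 libraries, with 9542329 to 37118494 counts per library. That gene is not reported here and its level was not used to check the genotypes, and the labels used here give no Cre driver, tumor model, age or separate animals. The p-values therefore measure the spread between these samples, which may be technical.

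The mitochondrial genome is a small circle present in many copies per cell. Its protein genes encode core subunits of respiratory complexes I, III and IV and of ATP synthase, and its rRNA and tRNA genes serve the mitochondrial ribosome. Both strands are transcribed as long precursors by the polymerase Polrmt with the factor Tfam, and tRNAs, which lie between most other genes, are cut out by RNase P and Elac2. Here 28 rows lay on the plus strand and 9 on the minus strand, namely mt-Nd6 and 8 tRNA genes. Strand handling in the authors' counting is not given in the sources used here, so reads of a minus-strand gene and of the opposite precursor cannot be told apart.

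Several mitochondrial genes have near-identical copies in the nuclear genome. A search of the annotated transcripts for matches of at least 100 bases and 95% identity found 11 copies of 9 mitochondrial genes. Of these copies, 7 were gene rows in a single stretch, chr1:24611535-24616197 on the minus strand of GRCm38. The tRNA genes, at 59 to 75 bases, are shorter than the match asked for, so the search could not find copies of them. The sequences below are taken from GENCODE vM21 and show why the levels of some members depend on where a read was counted. In mt-Atp6, a subunit of ATP synthase (MT:7927-8607), the first bases overlap the end of mt-Atp8 (MT:7766-7969) by 43 bases, shown in capitals, and the row Gm10925 (chr1:24613974-24614651) repeats them.
mt-Atp8: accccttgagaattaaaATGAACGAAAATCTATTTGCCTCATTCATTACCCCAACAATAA
mt-Atp6: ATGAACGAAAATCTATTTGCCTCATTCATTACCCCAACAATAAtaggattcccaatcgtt
Gm10925: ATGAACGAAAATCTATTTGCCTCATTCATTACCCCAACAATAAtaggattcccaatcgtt

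In mt-Nd3, a subunit of complex I (MT:9459-9806), the copy Gm28438 (chr1:24612775-24613119) differed over 345 matched bases only by T3C, counted from 1 at the start of mt-Nd3 and shown in capitals.
mt-Nd3: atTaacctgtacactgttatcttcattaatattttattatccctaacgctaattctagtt
Gm28438: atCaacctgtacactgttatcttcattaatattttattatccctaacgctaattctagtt

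The tRNA genes on which the tumor comparison of genotypes turned are all on the minus strand. They are those for glutamate, mt-Te (MT:14071-14139), which adjoins mt-Nd6, and for alanine, asparagine and cysteine, mt-Ta (MT:5018-5086), mt-Tn (MT:5089-5159) and mt-Tc (MT:5192-5257). The tyrosine gene mt-Ty (MT:5260-5326) is their neighbour and had the highest mean level per length among the mitochondrial rows in spleen WT and tumor WT when no copy was added. Whole genes are printed 5′ to 3′ on their own strand, with the anticodon in capitals.
mt-Te: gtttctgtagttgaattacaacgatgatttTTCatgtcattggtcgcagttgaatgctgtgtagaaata
mt-Ta: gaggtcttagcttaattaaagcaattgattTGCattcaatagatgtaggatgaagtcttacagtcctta
mt-Tn: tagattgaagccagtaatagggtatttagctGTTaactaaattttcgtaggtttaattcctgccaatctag
mt-Tc: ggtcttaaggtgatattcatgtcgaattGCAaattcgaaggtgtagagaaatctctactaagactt
mt-Ty: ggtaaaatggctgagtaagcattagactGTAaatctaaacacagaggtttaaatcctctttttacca

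The markers of other cells go against the label of the samples, most of all in tumor. Levels are given here as CPM, the counts scaled to the library total and its composition factor. The summed level of 14 NK cell markers ranged over 1370 to 1790 CPM in the spleen libraries and 43.6 to 209 CPM in the tumor libraries, with none of the 14 at 0. The sum of 14 macrophage markers was 254 to 430 CPM in spleen, 7070 to 13900 CPM in tumor WT and 1050 to 3000 CPM in tumor cKO, again with none at 0. The sum of 10 B cell markers was 2720 to 3420 CPM in the spleen libraries and 15.6 to 106 CPM in the tumor libraries. For 11 T cell markers it was 251 to 382 CPM in spleen, 277 to 329 CPM in tumor WT and 489 to 706 CPM in tumor cKO. The groups are therefore named here by tissue and genotype and not as NK cells. The part of these markers in the mitochondrial results was not tested, and in bulk samples fewer cells of a type and less RNA per cell cannot be told apart.

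Mitochondrial rows took a larger share of the counts in tumor than in spleen, and the genotypes overlapped in both tissues. The share was 1.069%, 0.931% and 0.819% in the spleen WT libraries and 0.882%, 0.946% and 0.862% in the spleen cKO libraries. In tumor it was 3.018%, 1.796% and 2.298% in WT and 1.941%, 2.724% and 1.702% in cKO. All 6 tumor libraries lay above all 6 spleen libraries. Spleen means were 0.94% ± 0.125 (SD, n = 3) for WT and 0.897% ± 0.0439 for cKO, and tumor means 2.37% ± 0.614 and 2.12% ± 0.535.

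Most of these counts fell on protein genes, at 94% to 97.1% of the mitochondrial counts per library. The 22 tRNA genes took 2.15% to 3.35%. The 2 rRNA genes, mt-Rnr1 (MT:70-1024) and mt-Rnr2 (MT:1094-2675), which encode the small and the large ribosomal RNA, took 0.777% to 1.13% in spleen and 1.88% to 2.67% in tumor. The tissues did not overlap in the rRNA share, and the genotypes did. How rRNA was removed or polyadenylated RNA selected is not given in the sources used here.

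Levels of different genes are compared as RPKM, counted reads scaled to gene length in kilobases and to the library total, given as mean ± SD over 3 libraries. In spleen WT, before any copy was added, mt-Ty stood highest at 2700 ± 192, above mt-Co1 (MT:5328-6872), the catalytic subunit of complex IV, at 1930 ± 148. These genes are neighbours on opposite strands, and over the 12 libraries mt-Ty was at 0.937 to 1.74 times mt-Co1 per length. Next came mt-Nd4l at 1780 ± 321, mt-Cytb, the mitochondrial subunit of complex III, at 1490 ± 222, mt-Nd1 at 867 ± 94.8 and mt-Nd4 at 845 ± 191. In that order mt-Co1 overlapped mt-Nd4l, mt-Nd4l overlapped mt-Cytb and mt-Nd1 overlapped mt-Nd4 between libraries.

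The complex I subunits mt-Nd5, mt-Nd2 and mt-Nd6 followed in spleen WT, at 626 ± 112, 480 ± 91.5 and 443 ± 93.6 RPKM, each overlapping its neighbour in the order. The rRNA genes were far below them, at 36.3 ± 7.64 for mt-Rnr2 and 29.7 ± 7.2 for mt-Rnr1. Lowest of the protein genes were mt-Nd3 at 11.8 ± 0.368, mt-Atp8 at 4.16 ± 3.65, mt-Atp6 at 2.24 ± 1.06, mt-Co2 at 1.27 ± 0.897 and mt-Co3 at 0.416 ± 0.0634. These 5 are consecutive among the protein genes along the genome.

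In tumor WT the same 5 genes led, mt-Ty at 5950 ± 2690, mt-Co1 at 4330 ± 1130, mt-Nd4l at 3920 ± 722, mt-Cytb at 3720 ± 1460 and mt-Nd1 at 3170 ± 703 RPKM. Each of the first 4 overlapped the next between libraries, and in the second library mt-Ty (3100) lay below mt-Co1 (3310) and mt-Nd4l (3610). Among all 33100 rows ranked by mean RPKM, 4 mitochondrial rows stood in the top 50 in each spleen group, 9 in tumor WT and 10 in tumor cKO. The plot of RPKM by gene shows the dip from mt-Co2 to mt-Nd3.

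**Figure D1:**
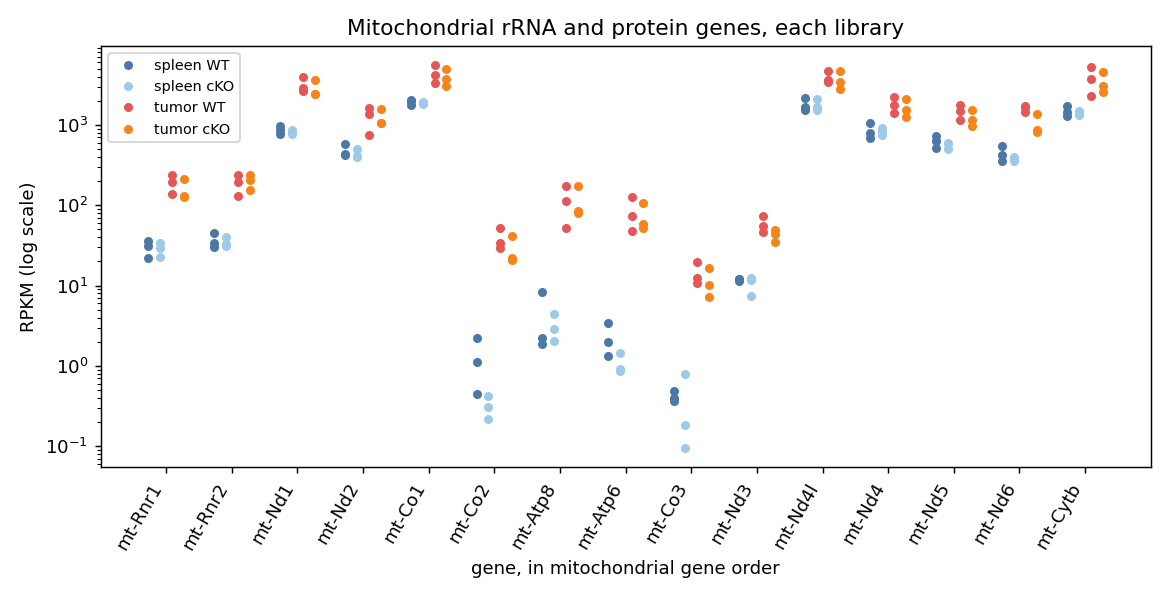
RPKM of the 15 rRNA and protein genes in gene order, on a log axis, with 1 point per library and colors for the 4 groups. All points of mt-Co2, mt-Atp8, mt-Atp6, mt-Co3 and mt-Nd3 in spleen lie below those of mt-Rnr1, and the tumor points of all 15 genes lie above their spleen points.

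Among the tRNA genes, mt-Tm, the initiator and elongator tRNA for methionine, came second at 186 ± 31.2 RPKM in spleen WT and 906 ± 513 in tumor WT. At the other end mt-Tf, mt-Td and mt-Tk had 0 counts in all 6 spleen libraries. A count of 0 allows up to 0.081 CPM over the spleen WT group and 0.0796 over spleen cKO. In tumor WT they held 12, 2 and 0 counts over 3 libraries, and in tumor cKO 19, 2 and 4. mt-Td and mt-Tk lie between mt-Co1 and mt-Atp6, which both have a copy on chromosome 1. The limits cover counting error only. They assume independent counts, but 68.8% to 73.3% of the counts from 1 to 49 were even, so the limits may be too low.

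For 3 protein genes nearly all reads stood on the nuclear copy. Gm28661 on chromosome 1 was identical to mt-Co2, a core subunit of complex IV, over 681 bases. It held 5060 to 10100 counts per spleen library, against 2 to 16 on mt-Co2. Gm10925, identical to mt-Atp6 over 678 bases, held 40061 to 57149 against 6 to 30. Gm28437 was identical to mt-Co3, a further core subunit of complex IV, over 783 bases, and held 7879 to 13965 counts against 1 to 6. In tumor the copies still held 98.5% to 99.6% of the reads of these 3 pairs.

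Other identical pairs showed the reverse. Gm28439 repeats 876 bases of mt-Nd4, yet held 0 to 6 counts per spleen library against 9987 to 18816 on mt-Nd4. Gm10222 repeats 294 bases of mt-Nd4l and held 0 to 2 counts against 4804 to 8226. For Gm28438 the reads were shared, with the copy at 22.2% to 40.7% of the pair in spleen and 35.7% to 56.5% in tumor. Gm29216, which matches 483 bases at the end of mt-Co1 with 1 difference at the edge of the match (A1066T), held 2.12% to 3% in spleen and 5.48% to 12.3% in tumor.

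Adding each copy on chromosome 1 to its mitochondrial row, a step chosen after seeing the data, changed the order of levels. Per length of the mitochondrial gene, mt-Atp6 then stood at 6390 ± 133 RPKM in spleen WT and 13100 ± 4580 in tumor WT. mt-Co2 stood at 972 ± 155 and 2990 ± 893, and mt-Co3 at 1330 ± 49.5 and 2720 ± 498. mt-Nd3 remained low, at 16.6 ± 1.25 in spleen WT and 109 ± 16.1 in tumor WT. How the authors' counting treated reads that match both rows of a pair is not given. Reads dropped from both rows would be missing from these sums, for mt-Nd3 as for the others. Mitochondrial rows and these copies together took 1.4% to 1.708% of a spleen library and 2.616% to 4.821% of a tumor library, so the tissues did not overlap on that scale either. Whether a read of a pair came from the mitochondrial or the nuclear genome was not tested. No row for a copy of mt-Atp8 was found, but only annotated transcripts were searched, so a copy without a row could not be found. mt-Atp8 begins between mt-Co2 and mt-Atp6, whose copies lie in the same stretch of chromosome 1.

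**Figure D2:**
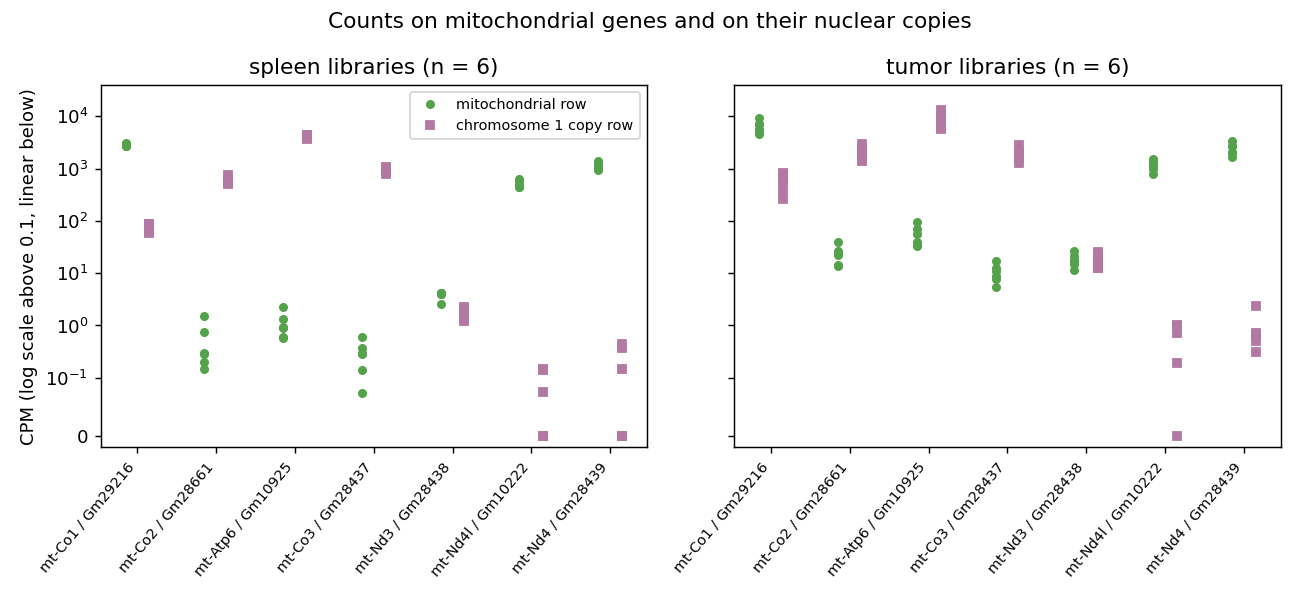
CPM of 7 mitochondrial genes (circles) and of their chromosome 1 copy rows (squares) in the 6 spleen and the 6 tumor libraries, on an axis that is logarithmic above 0.1 and linear below. The copies of mt-Co2, mt-Atp6 and mt-Co3 lie above the mitochondrial rows in all 12 libraries, and the copies of mt-Co1, mt-Nd4l and mt-Nd4 lie below them.

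The comparison of tumor with spleen in WT asked how transcript levels differ between the samples of both sites. Of the 34 members tested, 32 rose in tumor and none fell, with 13 of 13 protein genes, 2 of 2 rRNA genes and 17 of 19 tRNA genes. Over all 16831 genes tested, 33.9% were higher by the same rule and 62% changed in either direction. Calls are at an adjusted p (Benjamini-Hochberg over all genes tested) under 0.05 in edgeR's quasi-likelihood F-test, and changes are log2 values ± SE. The median over all genes was 0.116. The 8 members that passed the filter only through tumor were in the test because they were high there, so their rise was favoured by the filter. Of the 26 members that pass in the spleen libraries alone, 25 rose, namely 10 of 10 protein, 2 of 2 rRNA and 13 of 14 tRNA genes, with a median of 2.36, against 2.44 with the 8. The groups did not overlap in 33 of the 34, or 97.1%, and in 67.3% of all genes tested. The 34 include the 8, whose separation was likewise favoured by the filter. The members that did not pass were mt-Ti, the isoleucine tRNA, at 1.35 ± 0.7 (adjusted p = 0.107), and mt-Ts1, a serine tRNA, at 1.62 ± 1.02 (adjusted p = 0.18).

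mt-Nd1 (MT:2751-3707), a membrane subunit of complex I, had the smallest p. It stood at 903, 813 and 736 CPM in the spleen WT libraries and at 4180, 2640 and 3100 CPM in the tumor WT libraries. The lowest tumor library lay far above the highest spleen library. The change was 2.02 ± 0.19 (adjusted p = 1.09e-06), a 4.05-fold rise. As a share of the mitochondrial counts mt-Nd1 took 8.85% ± 0.21 (SD, n = 3) in spleen WT and 12.9% ± 1.03 in tumor WT.

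mt-Nd6 (MT:13552-14070), the complex I subunit on the minus strand, was at 276, 217 and 185 CPM in spleen WT and at 991, 897 and 847 CPM in tumor WT. Both groups stood well apart, with a change of 2.01 ± 0.19 (adjusted p = 1.2e-06). mt-Co1, the protein gene with the highest level, was at 3070, 3030 and 2690 CPM in spleen WT and 9460, 5350 and 7150 CPM in tumor WT. It changed by 1.32 ± 0.2 (adjusted p = 7.13e-05), and no library overlapped. The other well-counted protein genes rose by 1.24 to 1.52, with mt-Nd4 lowest and mt-Nd2 highest.

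mt-Rnr1 was at 28.8, 34.1 and 20.8 CPM in spleen WT and at 253, 140 and 209 CPM in tumor WT. Its change was 2.84 ± 0.28 (adjusted p = 3.2e-06). mt-Rnr2 went from 52.4, 70.1 and 47.4 CPM to 420, 213 and 347 CPM, a change of 2.53 ± 0.25 (adjusted p = 2.75e-06). In both rRNA genes every tumor library lay above every spleen library, and the second tumor WT library was the lowest of its group. The ratio of mt-Rnr2 to mt-Rnr1 per length was 1.24 ± 0.14 (SD, n = 3) in spleen WT and 0.973 ± 0.0468 in tumor WT.

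The genes whose reads stood mainly on nuclear copies, and mt-Atp8, for which no copy row was found, gave the largest changes on their own rows. Of these, mt-Co2, mt-Co3 and mt-Atp8 were in the test only through their tumor level. mt-Co2 was at 0.303, 0.753 and 1.51 CPM in spleen WT and at 39.7, 24.3 and 22.4 CPM in tumor WT, a change of 5.11 ± 0.47 (adjusted p = 1.12e-06). mt-Atp6 and mt-Co3 changed by 5.34 ± 0.48 and 5.22 ± 0.56, and mt-Atp8, which has the overlap with mt-Atp6, by 4.88 ± 0.63. With the copies added the changes were 1.77 ± 0.23 for mt-Co2, 1.19 ± 0.24 for mt-Atp6 and 1.19 ± 0.15 for mt-Co3, all still called (adjusted p = 3.45e-05, 0.00106 and 1.33e-05). These lie near the changes of the other protein genes. For mt-Atp8 there was no copy row to add, and whether its reads were also counted or lost elsewhere was not tested. For mt-Nd3 the change was 2.45 ± 0.25 without its copy and 2.85 ± 0.21 with it.

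Among tRNA genes mt-Te had the smallest p, at 5.24, 2.86 and 2.55 CPM in spleen WT and 24.5, 46.2 and 22.6 CPM in tumor WT. No library overlapped, and the change was 3.13 ± 0.35 (adjusted p = 6.69e-06). mt-Tl1, a leucine tRNA between mt-Rnr2 and mt-Nd1, went from 9.94, 7.91 and 7.28 CPM to 60.4, 22.8 and 52.7 CPM, a change of 2.43 ± 0.33 (adjusted p = 3.96e-05). mt-Ty changed less, by 1.29 ± 0.3 (adjusted p = 0.00277). The changes of mt-Tw (2.37 ± 0.8), mt-Ta (2.81 ± 0.76), mt-Tn (3.03 ± 0.75) and mt-Tc (3.12 ± 0.67) rested largely on the second tumor WT library, described with the tumor comparison of genotypes. Without it, mt-Tw was at 1.24 and no longer called, while mt-Ta at 0.96 and mt-Tn at 1.26 were still called.

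In cKO 26 of the 34 members rose in tumor against spleen and none fell, where 31.7% of all genes tested were higher and 60.5% changed in either direction. They were 13 of 13 protein, 2 of 2 rRNA and 11 of 19 tRNA genes, with a median of 1.42 against 0.071 over all genes. Of the 26 members that pass in the spleen libraries alone, 20 rose, namely 10 of 10 protein, 2 of 2 rRNA and 8 of 14 tRNA genes, with a median of 1.37. The groups did not overlap in 27 of the 34, or 79.4%, and in 70% of all genes tested. The 34 include the 8 that passed only through tumor, whose separation was favoured by the filter. Not passing were mt-Ti, mt-Tq, mt-Tw, mt-Ta, mt-Tn, mt-Tc, mt-Ts1 and mt-Tg, with changes from -0.25 to 1.31.

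mt-Rnr2 was at 51.6, 60.2 and 48.7 CPM in spleen cKO and at 238, 361 and 319 CPM in tumor cKO. All tumor libraries were above all spleen libraries, with a change of 2.52 ± 0.25 (adjusted p = 3.1e-06). mt-Atp6 went from 0.954, 0.601 and 0.568 CPM to 38.9, 69 and 33.7 CPM, a change of 6.03 ± 0.52 (adjusted p = 1.39e-06), or 1.04 ± 0.24 (adjusted p = 0.00282) with its copy. mt-Co2 went from 0.147, 0.2 and 0.284 CPM to 14, 27.2 and 14.6 CPM, a change of 6.4 ± 0.55 (adjusted p = 7.66e-07), or 1.72 ± 0.23 (adjusted p = 4.69e-05) with its copy. The libraries of both tissues stood apart for both genes, and the change was far smaller with the copy. However, mt-Co2 passed the filter only through tumor, so the rise on its own row was favoured by the filter. Its row had 8 counts over the spleen cKO group.

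The tRNA genes of smallest p in cKO were mt-Tl1 and mt-Tv, the valine tRNA between the rRNA genes. mt-Tl1 stood at 9.69, 12.8 and 7.32 CPM in spleen and at 46.4, 60.1 and 59.9 CPM in tumor, a change of 2.49 ± 0.33 (adjusted p = 3.39e-05). mt-Tv stood at 0.66, 0.301 and 0.355 CPM in spleen and at 5.93, 7.82 and 9.45 CPM in tumor, a change of 4.09 ± 0.59 (adjusted p = 5.75e-05). Neither gene overlapped between tissues, but mt-Tv passed the filter only through tumor and had 17 counts over the spleen cKO group, so its rise was favoured by the filter.

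**Figure D3:**
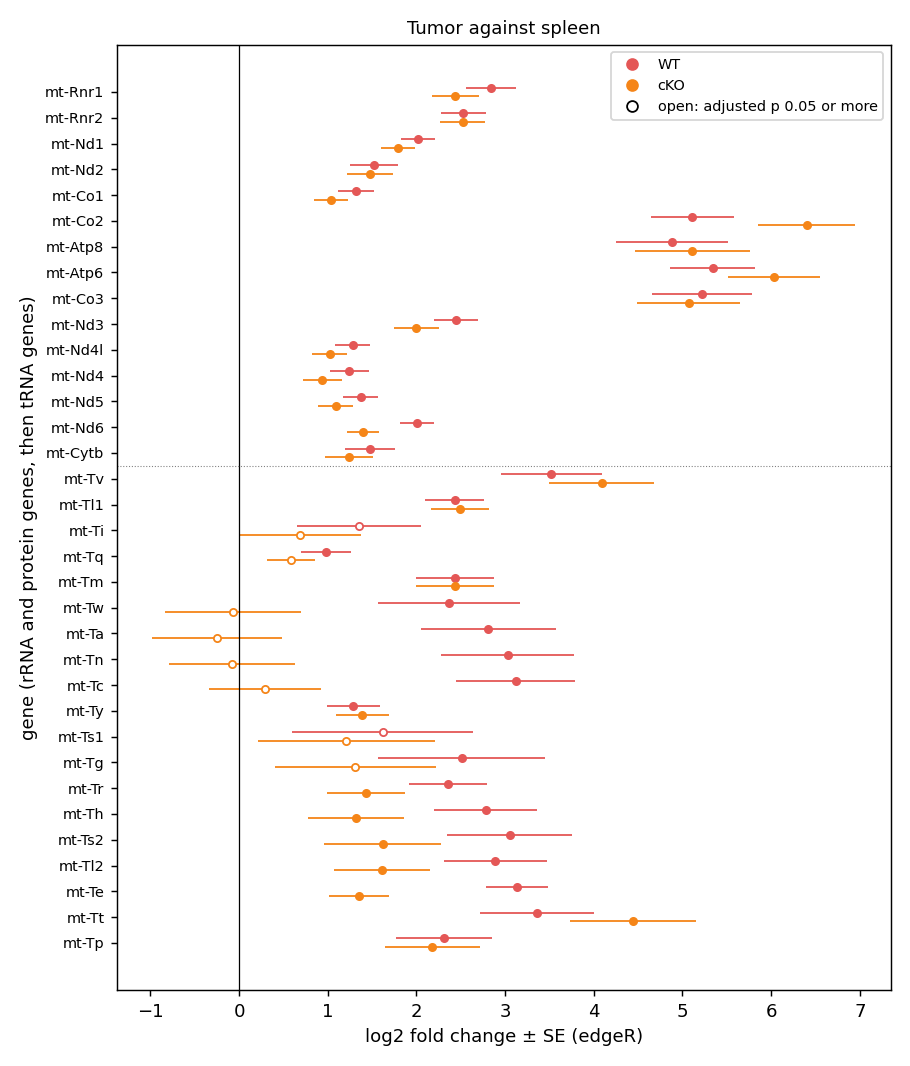
Log2 fold change ± SE of tumor against spleen for the 34 tested genes, in WT and in cKO, rRNA and protein genes above the dotted line and tRNA genes below it. Filled points were called, and mt-Tw, mt-Ta, mt-Tn and mt-Tc lie between 2.37 and 3.12 in WT and between -0.25 and 0.29 in cKO.

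Nuclear genes for respiratory subunits and for upkeep and expression of the mitochondrial genome were counted in tumor WT against 33.9% higher and 28.1% lower over all genes. Differences between these lists were not tested. In complex I 24 of 36 nuclear subunits rose and none fell (median 0.69), with Ndufb9 at 1.71 ± 0.15. In complex III 5 of 9 rose (median 0.62), in complex IV 8 of 11 (median 1.26, Cox6c at 2.04 ± 0.12) and in ATP synthase 12 of 14 (median 0.95, Atp5j at 1.14 ± 0.1), and none fell. Of complex II, which has no mitochondrially encoded subunit, 3 of 4 rose (median 0.85). The median over all genes was 0.116.

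Of 16 genes for mitochondrial transcription and its nuclear regulators, 6 fell and none rose in tumor WT (median -0.48). Tfam, which packages mitochondrial DNA and starts its transcription, changed by -1.46 ± 0.14 (adjusted p = 1.44e-06), and Polrmt by -1.03 ± 0.17 (adjusted p = 0.000142). Of 14 genes for replication of mitochondrial DNA and its nucleotide supply, 9 fell and 1 rose (median -0.6), with the ribonucleotide reductase subunit Rrm2b at -2.15 ± 0.19. Of 35 tested genes for RNA processing, modification and decay, 5 rose and 10 fell (median -0.21). Mitochondrial aminoacyl-tRNA synthetases had 1 higher and 5 lower of 16, and translation factors 1 higher and 4 lower of 11. The counts lower for RNA processing and for the synthetases are near the 28.1% of all genes.

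The tumor comparison of cKO with WT asked what loss of the gene changes in the tumor samples. Of the 34 members 6 fell and none rose, against 21.6% of all genes lower and 38% called in either direction. The 6 were the protein genes mt-Nd6 and mt-Nd3 and the tRNA genes mt-Te, mt-Ta, mt-Tn and mt-Tc. The share lower was thus near that of all genes. The median change was -0.36 over the 34 members and -0.117 over all genes. Of the 34 values 31 were below 0, against 55.4% of all genes, but the members share the same libraries, so their signs are not independent. The groups did not overlap in 8 of the 34, or 23.5%, all of them lower. Of all genes tested 27.3% were lower without overlap, which is near that share, and 50.3% did not overlap in either direction. This comparison uses the same tumor WT and tumor cKO libraries as the tissue comparisons.

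mt-Nd6 was at 991, 897 and 847 CPM in tumor WT and at 433, 666 and 412 CPM in tumor cKO. All 3 cKO libraries lay below all WT libraries, though the second cKO library came nearest. The change was -0.86 ± 0.18 (adjusted p = 0.00275), or 0.552 of the WT level. It was called in 20 of 20 alternatives, with values from -1.1 to -0.67 and adjusted p from 6.61e-07 to 0.031. As a share of all mitochondrial counts mt-Nd6 took 2.98%, 4.77% and 3.3% in WT and 2.3%, 2.58% and 2.52% in cKO, again without overlap. Per length, mt-Nd6 stood at 0.987, 1.43 and 0.991 times mt-Nd5, with which it overlaps by 14 bases on the opposite strand, in tumor WT and at 0.755, 0.88 and 0.85 times in tumor cKO.

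mt-Te, whose sequence is given above, was at 24.5, 46.2 and 22.6 CPM in tumor WT and at 8.67, 12 and 13 CPM in tumor cKO. Every cKO library lay below every WT library, and the second WT library was the highest. The change was -1.47 ± 0.32 (adjusted p = 0.00331), and it was called in 20 of 20 alternatives, from -1.64 to -1.07 with adjusted p from 1.78e-06 to 0.0176. As a share of the mitochondrial counts mt-Te overlapped between the groups, at 0.0737% to 0.246% in WT and 0.0461% to 0.0795% in cKO.

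The changes of mt-Ta, mt-Tn and mt-Tc rested in size mostly on 1 tumor WT library, and their calls on more than that library. These calls were also lost without any single tumor cKO library, in the fit of the tumor libraries alone, and by limma. mt-Tc was at 13.1, 72.5 and 9.94 CPM in tumor WT and at 7.69, 6.55 and 7.63 CPM in tumor cKO. mt-Tn was at 7.62, 57.3 and 6.27 CPM in WT and at 5, 4.51 and 3.99 CPM in cKO. mt-Ta was at 5.93, 51.6 and 5.73 CPM in WT and at 4.31, 3.73 and 3.64 CPM in cKO. The groups did not overlap in any of these genes, but the second WT library was several times higher than the others of its group. The changes were -2.13 ± 0.63, -2.41 ± 0.71 and -2.45 ± 0.73 (adjusted p = 0.02, 0.02 and 0.021), and without that library -0.65 ± 0.32, -0.62 ± 0.35 and -0.58 ± 0.35, no longer called.

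The second tumor WT library stood apart in its tRNA profile. Of the 22 tRNA genes it was above the other 5 tumor libraries in 9 (mt-Tw, mt-Ta, mt-Tn, mt-Tc, mt-Tr, mt-Th, mt-Ts2, mt-Tl2 and mt-Te) and below them in 7. mt-Ta was 11 times the mean of the others, mt-Tn 10.5 times, mt-Tc 8.08 times and mt-Tw 5.42 times. mt-Ty was 0.456 times that mean and mt-Tm 0.279 times. The genes mt-Tw, mt-Ta, mt-Tn and mt-Tc are neighbours, as are mt-Th, mt-Ts2 and mt-Tl2. The same library had the most counts, 37118494, the highest macrophage sum, 13900 CPM, and a fibroblast and endothelial marker sum of 1900 CPM against 80.7 to 299 CPM in the other tumor libraries. Their part in its tRNA levels was not tested.

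mt-Nd3 was at 21.3, 27.1 and 17.9 CPM in tumor WT and at 11.7, 16.4 and 14.8 CPM in tumor cKO. The groups did not overlap, by a margin of 16.4 against 17.9 CPM. The change was -0.63 ± 0.23 (adjusted p = 0.0434) and was called in 6 of 20 alternatives. With the copy Gm28438 added it was -0.47 ± 0.19 (adjusted p = 0.0745). mt-Nd5, a complex I subunit, was at 3530, 2200 and 3000 CPM in WT and 2010, 2660 and 1710 CPM in cKO, which overlap, at -0.45 ± 0.2 (adjusted p = 0.0844).

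The other protein genes had values from -0.19 for mt-Nd2 to -0.63 for mt-Co2 and did not pass. mt-Co1 was at 9460, 5350 and 7150 CPM in WT and at 5650, 7210 and 4530 CPM in cKO, and the groups overlapped (-0.34 ± 0.19, adjusted p = 0.186). mt-Co3, the protein row with the lowest level when no copy is added, was at 17.2, 8.8 and 10.9 CPM in WT and 7.86, 12.4 and 5.42 CPM in cKO, at -0.52 ± 0.41 (adjusted p = 0.34). With Gm28437 added, mt-Co3 fell by 0.61 with an SE of 0.14 (adjusted p = 0.00512), and that copy row itself changed by -0.61 ± 0.14 (adjusted p = 0.00508). The mt-Co1 copy Gm29216 changed by -0.9 ± 0.21 (adjusted p = 0.00531), while mt-Co1 with the copy added was at -0.38 ± 0.19 (adjusted p = 0.128).

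The rRNA genes did not pass. mt-Rnr1 was at 253, 140 and 209 CPM in tumor WT and at 119, 194 and 118 CPM in tumor cKO, at -0.48 ± 0.26 (adjusted p = 0.161). mt-Rnr2 was at 420, 213 and 347 CPM in WT and at 238, 361 and 319 CPM in cKO, at -0.09 ± 0.23 (adjusted p = 0.779), with a 95% interval from -0.6 to 0.41. Both overlapped between the groups.

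Leaving out the second tumor WT library gave 6 called members again, all lower, of which only mt-Nd6 and mt-Te were among the first 6. The others were the plus-strand protein genes mt-Nd1, mt-Co1, mt-Nd5 and mt-Cytb, at -0.48 ± 0.17, -0.52 ± 0.17, -0.62 ± 0.18 and -0.61 ± 0.21. In that fit 21.2% of all genes were lower. By strand, 5 of 9 tested minus-strand members and 1 of 25 plus-strand members were called lower with all libraries, and 2 of 9 and 4 of 25 without that library. The plot of changes with and without it shows the shift.

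**Figure D4:**
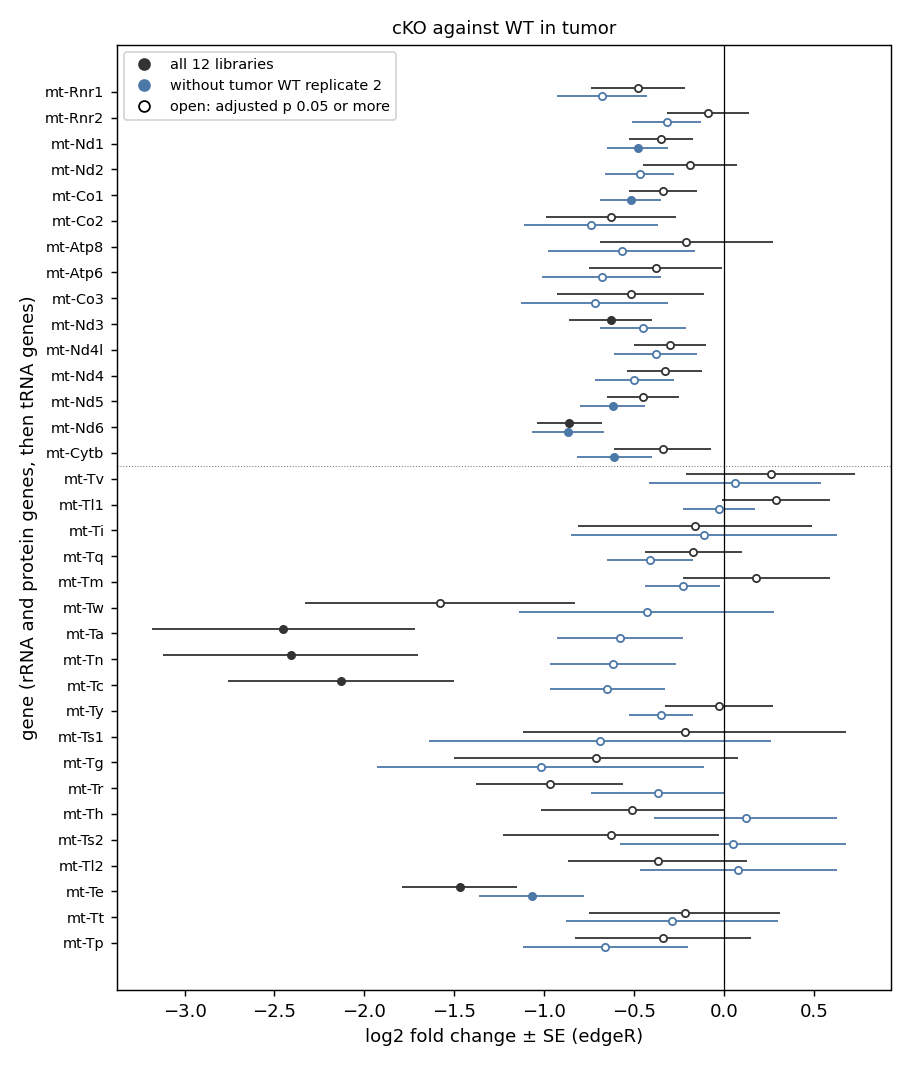
Log2 fold change ± SE of cKO against WT in tumor for the 34 tested genes, with all 12 libraries and without tumor WT replicate 2. Filled points were called, and mt-Ta moves from -2.45 to -0.58 while mt-Nd6 stays near -0.86 and mt-Te goes from -1.47 to -1.07.

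Marker levels moved with genotype in tumor. The macrophage sum was 7070 to 13900 CPM in WT and 1050 to 3000 CPM in cKO, with 13 of 14 markers called lower. The NK sum was 64.8 to 209 CPM in WT and 43.6 to 67 CPM in cKO, with 10 of 14 lower. T cell markers had 4 of 11 higher. Over all genes 21.6% were lower and 16.4% higher. The fibroblast and endothelial sum was 211 to 1900 CPM in WT and 80.7 to 153 CPM in cKO, with 4 of 9 tested lower. For erythroid and platelet markers it was 199 to 222 and 28.3 to 51 CPM, with 2 of 10 tested lower. B cell markers had 2 higher and 2 lower of 10, and neutrophil markers 1 higher and 1 lower of 7 tested. The part of these markers in the fall of mt-Nd6 and mt-Te was not tested.

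In tumor cKO more genes rose than fell in each of the 5 lists of nuclear genes that serve the mitochondrial genome. Over all genes 16.4% were higher and 21.6% lower. Without the composition factors 57.5% of all genes called were higher, against 43.1% with them, and the lists were not counted on that scale. Of 35 tested genes for mitochondrial RNA processing, modification and decay, 15 rose and none fell (median 0.41). They include the exonuclease Rexo2 at 0.93 ± 0.13 (adjusted p = 0.000222) and Elac2, which cuts the 3′ end of tRNAs, at 0.69 ± 0.16 (adjusted p = 0.00425). Mitochondrial aminoacyl-tRNA synthetases, which load tRNAs with amino acids, had 7 higher and 1 lower of 16 (median 0.7), with the methionine enzyme Mars2 at 1.43 ± 0.25.

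In the transcription list 3 of 16 rose, near the share of all genes, and 1 fell. Tfam was at 1.1 ± 0.14 (adjusted p = 0.000114) and Polrmt at 0.89 ± 0.17 (adjusted p = 0.0012). In the replication list 7 of 14 rose and 2 fell, with the thymidine kinase Tk2 at -1.09 ± 0.21 and the nuclease Dna2 at 1.61 ± 0.32. Translation factors had 5 of 11 higher, among them Tsfm at 1.08 ± 0.2. Nuclear subunits of complex I had 9 of 36 higher (Ndufa10 at 0.79 ± 0.11), complex III 1 of 9, complex IV 1 of 11 higher and 1 lower, ATP synthase 3 of 14 higher and 2 lower, and complex II none of 4. These lists and the mitochondrial genes were described side by side, and their difference was not tested.

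In spleen no member was called between cKO and WT in edgeR, where 0.0297% of all 16831 genes, 5 genes, were called. DESeq2 also called no member, and 784 genes of all those tested had an unadjusted p under 0.05. The median over the 34 members was -0.05. All 13 protein genes had values below 0, from -1.93 to -0.03, where 49.2% of all genes did, and 14 of 19 tRNA genes had values above 0. The members share the same libraries, so their signs are not independent, and 3 of these protein genes passed the filter only through tumor. The median over the members became 0.09 without spleen WT replicate 2 and 0.05 without spleen cKO replicate 1.

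mt-Co2 had the smallest p in spleen. It was at 0.303, 0.753 and 1.51 CPM in WT and at 0.147, 0.2 and 0.284 CPM in cKO, the only member without overlap (2.94% of members, 11.4% of all genes), at -1.93 ± 0.69 (adjusted p = 0.96). With Gm28661 added it was at -0.26 ± 0.23. mt-Atp6 was at 2.28, 0.904 and 1.32 CPM in WT and at 0.954, 0.601 and 0.568 CPM in cKO, at -1.07 ± 0.6, or -0.15 ± 0.24 with Gm10925. The libraries of mt-Atp6 overlapped.

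mt-Nd6 in spleen was at 276, 217 and 185 CPM in WT and at 191, 199 and 181 CPM in cKO, which overlap. Its value was -0.25 ± 0.18 with a 95% interval from -0.64 to 0.14. mt-Te was at 5.24, 2.86 and 2.55 CPM in WT and at 4.11, 5.51 and 3.62 CPM in cKO, also overlapping. The tRNA genes of smallest p were the histidine tRNA mt-Th, at 0.531, 0.979 and 1.61 CPM in WT and 1.98, 2.91 and 1.14 CPM in cKO, and the threonine tRNA mt-Tt. mt-Tt was at 0.152, 0.301 and 0.567 CPM in WT and 0.293, 0 and 0.071 CPM in cKO, with 12 and 5 counts over the groups.

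The difference of the cKO effect between tumor and spleen was tested as an interaction. Of the 34 members 1 was called, lower, where 10.6% of all genes were lower, 7.68% higher and 18.3% changed in either direction. That member was mt-Te, at -1.77 ± 0.48 (adjusted p = 0.0226). mt-Nd6 was at -0.61 ± 0.26 (adjusted p = 0.118) and mt-Nd3 at -0.45 ± 0.34 (adjusted p = 0.39), so their falls in tumor were not shown to differ from spleen. mt-Tc was at -2.83 ± 0.91 (adjusted p = 0.0514) and mt-Co2 at 1.3 ± 0.78 (adjusted p = 0.271). The call of mt-Te was lost when replicate 2 or 3 of spleen WT, or replicate 2 of spleen cKO, was left out, with adjusted p up to 0.0622 over 19 alternatives.

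**Figure D5:**
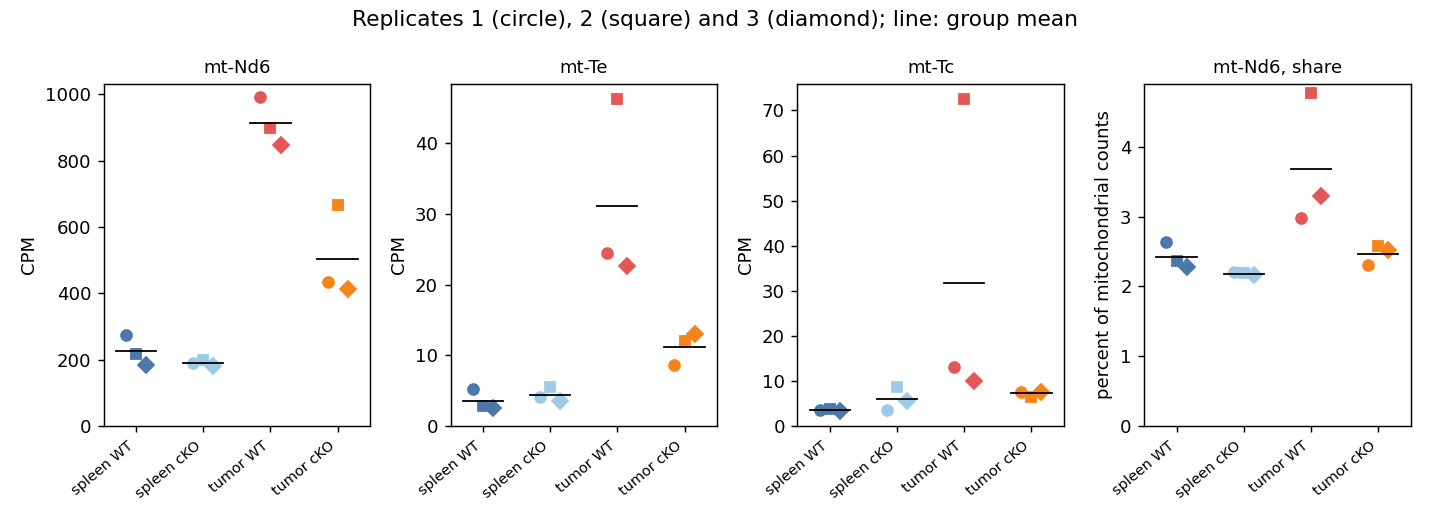
CPM of mt-Nd6, mt-Te and mt-Tc and the share of mt-Nd6 in all mitochondrial counts in percent, 1 symbol per library by replicate number and a line at the group mean, with axes from 0. Tumor WT lies at 847 to 991 CPM for mt-Nd6 and tumor cKO at 412 to 666 CPM, and the second tumor WT library, a square, stands at 72.5 CPM for mt-Tc.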

How the data were processed

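Total RNA, extracted with TRIzol, was sequenced on a NovaSeq 6000 per the labels' protocols, and TopHat2 2.0.6 and the build mm10 (GRCm38) are named in the submitters' processing notes. The sources used here name no counting program or strand setting. Per gene the authors deposited whole-number counts, 68.8% to 73.3% of those from 1 to 49 being even. The authors also deposited RPKM values, all equal to those computed from the counts within a relative tolerance of 0.001. Totals ran from 9542329 to 37118494 counts and were lower in spleen, which limits the rows with few counts there. The members, gene lists, markers and tests were chosen with earlier results of these data known. Of the 37 symbols in the RNA processing list, 35 were in the table.

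Counts were fitted in R 4.3.3 with edgeR 4.0.16, with filterByExpr over the 4 groups, which left 16831 genes, TMM factors and a robust quasi-likelihood F-test (two-sided) on all 12 libraries with 8 residual degrees of freedom. Log2 changes, their errors and Benjamini-Hochberg adjusted p-values come from that fit, which was tested on simulated data. CPM use TMM-scaled totals. All 34 tested members were eligible to be named, and those with values per library were mt-Rnr1, mt-Rnr2, the highest and lowest protein genes, mt-Nd6, and in each comparison the 3 protein or rRNA and 2 tRNA genes of smallest p. Those called in tumor cKO were added after their values were seen. Of the nuclear lists up to 3 members of smallest p were named. Copies were found with blastn 2.17.0. Alternatives were DESeq2 1.42.0, limma 3.58.1 on log2(RPKM + 0.5), no TMM, no filter, fewer groups, a replicate block, each library left out and, added later, counts with the chromosome 1 copies.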

Additional observations from a re-analysis of the deposited data

Results flagged for a closer look

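The cKO effect on mt-Te, the glutamate tRNA gene, differed between the tissues by a test of the difference itself. The effect in tumor minus the effect in spleen was -1.77 on the log2 scale (SE 0.48, adjusted p = 0.0226 in edgeR, interval from -2.8 to -0.74). mt-Te was lower in all 3 tumor cKO libraries than in all 3 tumor WT libraries and overlapped between genotypes in spleen. The value lay between -2.16 and -1.36 over 19 alternatives and was called in 16 of them. Groups of 3 libraries give little ground to judge a single outlying value. The second tumor WT library stood highest for mt-Te, at 46.2 CPM against 8.67 to 24.5 CPM in the other tumor libraries. Without that library mt-Te was still called. As a share of the mitochondrial counts mt-Te overlapped between the genotypes in tumor. It was the only call among the 34 members tested, where 18.3% of all genes were called.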

How the results depend on the processing

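The number of members called lower in tumor cKO was 6 and became 2 with only the tumor libraries and 2 by limma, each time mt-Nd6 and mt-Te, and 2 to 6 with single libraries left out. In spleen it was 0 and became 1, mt-Co2, without the filter. For the difference between tissues it was 1 and became 2 by DESeq2, 5 without the filter and 0 to 4 with single libraries left out. mt-Rnr2 in tumor cKO was -0.09 and turned to 0.1 without TMM factors, 0.12 by limma and, with single libraries left out, lay from -0.32 to 0.13, called in none of these. With the chromosome 1 copies the difference for mt-Co2 was -0.05, and the mitochondrial share was 1.55% for WT and 1.45% for cKO in spleen, and 3.74% and 3.33% in tumor. By RPKM in place of counts mt-Nd6 took 3.67%, 3.24%, 5.24% and 3.43% in that order, and the rRNA genes 0.551%, 0.543%, 1.19% and 1.23%. Without TMM factors 57.5% of the genes called in tumor cKO were higher, against 43.1% with them, and the median over all genes moved from -0.117 to 0.056. For the difference these were 58% and 42.1%. Between libraries of the same replicate number, deviations from the group means had correlations from -0.08 to 0.1. These values cannot show whether such libraries came from the same animal. A fit with the replicate block called 0 and 6 members between genotypes in spleen and tumor, 32 and 25 between tissues for WT and cKO, and 1 for the difference, against 0, 6, 32, 26 and 1 without the block. The cause of the other changes was not tested. The spleen counts of mt-Tf, mt-Td and mt-Tk were 0, and the part of depth in this was not tested.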
